A study of Mus musculus with 14 samples.

Results

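The genes of MHC class II antigen presentation were followed in bulk RNA-seq of mouse brain hemispheres after stroke. They are 8 of the 46904 genes in the deposited RPKM table (reads per gene length and library size), chosen by symbol: Cd74, H2-Aa, H2-Ab1, H2-Eb1, H2-DMa, H2-DMb1, Ciita and Ifi30. All 8 were present in the table and all 8 passed the filter of a value above 0 in at least 2 libraries, which left 46102 genes for testing. The 14 libraries came from mice lacking the neuropeptide cortistatin (Cort-/-) and from wild-type mice (Cort+/+) on a C57BL/6J background, aged 12 weeks. The middle cerebral artery was occluded (MCAO) for 20 min with an intraluminal filament, and brains were collected 48 h later. The ischemic hemisphere is called MCAO and the opposite, healthy hemisphere of operated mice is called CL. There were 3 Cort+/+ CL, 3 Cort+/+ MCAO, 3 Cort-/- CL and 5 Cort-/- MCAO libraries, so every group had been through surgery and none came from a sham-operated or naive mouse. Replicates of Cort+/+ MCAO are numbered 2, 3 and 4 in the labels, whereas the methods give 3 CL and 5 MCAO replicates. The methods also state that replicates that did not group clearly were set aside where variability was large. Whether this applies to Cort+/+ MCAO is not stated, and the p-values below take no account of such a choice.

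MHC class II molecules display peptides from ingested and endosomal proteins to CD4+ T cells. Each is a pair of an alpha and a beta chain, which in the mouse are encoded as I-A by H2-Aa and H2-Ab1, and as I-E with the beta chain from H2-Eb1. Mice of the C57BL/6 strain carry the b haplotype, which makes no I-E alpha chain. The chains are assembled with the invariant chain Cd74, which blocks the peptide groove and guides the complex to endosomes. There, proteases trim Cd74, the reductase Ifi30 (GILT) opens disulfide bonds of antigens, and the H2-DM heterodimer of H2-DMa and H2-DMb1 exchanges the last invariant chain fragment for a peptide. Ciita, the class II transactivator, binds no DNA itself but is recruited by RFX, NF-Y and CREB proteins assembled on the X and Y boxes of class II promoters, and it is induced by interferon-gamma. In the healthy brain parenchyma few cells carry class II. Border macrophages, dendritic cells, B cells and activated microglia are the known sources.

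On the GRCm39 genome, 5 of the 8 genes lie within 197.1 kb of chromosome 17. In order they are H2-DMa (34338515 to 34358958), H2-DMb1 (34372046 to 34379204), H2-Ab1 (34476663 to 34488393), H2-Aa (34493404 to 34506798) and H2-Eb1 (34504236 to 34535648). Ciita lies on chromosome 16 (10297923 to 10347694), Cd74 on chromosome 18 (60936899 to 60945731) and Ifi30 on chromosome 8 (71215403 to 71219334). H2-Aa and H2-Eb1 overlap by 2563 bases on opposite strands, H2-DMa overlaps Brd2 by 3231 bases and Ciita overlaps Dexi by 29935 bases, both also on opposite strands. The kit preserved strand, but the strand setting used in counting is not given in the sources used here, so reads in those stretches may be shared.

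Whole reads could be recovered from all 495656 values above 0, within 0.01 of a read, and summed to between 25991112 and 43034545 reads per library. The lowest total was that of Cort-/- MCAO replicate 3. Cort itself had 64 to 139 reads in every Cort+/+ library and 0 to 4 reads in the Cort-/- libraries. The 5 neuronal markers summed to between 1492 and 2072 RPKM in all libraries. Neither the number of cells nor the RNA per cell was measured, so more cells of a type and more RNA per cell cannot be told apart in these hemispheres. The labels call the samples independent biological replicates but do not name animals or say whether CL and MCAO came from the same mouse, so p-values measure the spread between libraries.

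RefSeq promoters on GRCm38.p6 were used for 5 members, with 6 start sites in all. The member promoters used did not include Cd74, Ciita or H2-Ab1. The 150 bases before the start are shown for the 3 promoters that held an X box or the long Y box and for Ifi30, the member with the largest fold difference between hemispheres. Capitals mark matches to an X box (AACNGATG), a long Y box (CTGATTGG) or its core (ATTGG), searched on both strands, where each long Y box contains a core. They lie at chr17:34287824-34287973 on the minus strand for H2-Aa, chr17:34305717-34305866 on the plus strand for H2-Eb1, chr17:34153041-34153190 on the plus strand for H2-DMb1 and chr8:70766664-70766813 on the minus strand for Ifi30.
H2-Aa: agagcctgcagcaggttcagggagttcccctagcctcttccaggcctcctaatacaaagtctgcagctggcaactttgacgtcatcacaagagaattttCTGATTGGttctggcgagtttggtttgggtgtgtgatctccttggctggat
H2-Eb1: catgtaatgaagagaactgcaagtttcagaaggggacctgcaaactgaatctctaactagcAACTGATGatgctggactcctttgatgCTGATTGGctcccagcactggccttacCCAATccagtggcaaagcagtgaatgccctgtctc
H2-DMb1: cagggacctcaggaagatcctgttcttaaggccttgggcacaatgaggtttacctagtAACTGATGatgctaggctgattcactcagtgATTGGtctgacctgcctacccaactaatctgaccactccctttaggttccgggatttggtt
Ifi30: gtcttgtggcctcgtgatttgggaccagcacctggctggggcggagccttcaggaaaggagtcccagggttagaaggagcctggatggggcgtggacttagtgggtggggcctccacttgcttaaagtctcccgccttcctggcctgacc

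The H2-Eb1 and H2-DMb1 promoters each held an X box followed by a Y box core, whose first bases lay 30 and 31 bases apart. Motifs were searched over 300 bases, from 250 before to 50 after each start, so beyond the stretches shown. Over that length the X box letters occurred in 2.32% of 32851 promoters, the long Y box in 4.1% and the core in 37.41%. A core in an H2-DMa promoter began at position -198 from the start, outside the length of the stretches shown. H2-Aa held the long Y box but not these X box letters, and Ifi30 held none of these motifs. The interferon-gamma activated site TTCNNNGAA was found in 0 of the 6 member promoters, against 8.3% of all promoters. A match is a description of letters and not evidence of binding, and a window without a match says nothing of the factor.

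Ciita, the transactivator, was the scarcest member. It had 5, 5 and 4 reads in the Cort+/+ CL libraries and 4, 4 and 4 reads in the Cort-/- CL libraries. It had 8, 17 and 1 reads in Cort+/+ MCAO replicates 2, 3 and 4, and 24, 15, 4, 14 and 12 reads in Cort-/- MCAO replicates 1 to 5. Thus 7 of 8 MCAO libraries had a higher RPKM than every CL library, and the exception was Cort+/+ MCAO replicate 4, whose single read allows up to 5.57 reads (exact 95% Poisson limit, counting error only). The mean was 0.0158 ± 0.00242 RPKM (SD, n = 3) in Cort+/+ CL and 0.0272 ± 0.0234 RPKM (n = 3) in Cort+/+ MCAO. In Cort-/- hemispheres it was 0.0146 ± 0.000458 RPKM (n = 3) in CL and 0.0413 ± 0.0173 RPKM (n = 5) in MCAO. All these values lie below the 0.1 RPKM added before taking logarithms, so the fitted log2 difference understates any change of Ciita.

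H2-Aa, the I-A alpha chain, was at 0.977, 0.846 and 0.998 RPKM in Cort+/+ CL and at 1.45, 2.82 and 1.72 RPKM in Cort+/+ MCAO. In Cort-/- hemispheres it was at 1.11, 0.960 and 0.876 RPKM in CL and at 3.02, 2.12, 2.08, 1.401 and 2.36 RPKM in MCAO. The lowest MCAO library lay above the highest CL library in both genotypes. H2-Ab1, the I-A beta chain, was at 0.659, 0.763 and 0.907 RPKM in Cort+/+ CL and at 1.22, 2.67 and 1.23 RPKM in Cort+/+ MCAO. It was at 0.838, 0.769 and 0.892 RPKM in Cort-/- CL and at 3.60, 2.15, 1.81, 1.78 and 2.26 RPKM in Cort-/- MCAO, again without overlap between hemispheres. Cort-/- MCAO replicate 1 stood far above the other 4 libraries of its group for this gene. H2-Eb1, the I-E beta chain, was at 0.561, 0.693 and 0.658 RPKM in Cort+/+ CL and at 1.13, 1.61 and 1.10 RPKM in Cort+/+ MCAO. It was at 0.765, 0.649 and 0.592 RPKM in Cort-/- CL and at 2.33, 1.37, 1.70, 0.832 and 1.30 RPKM in Cort-/- MCAO. Hemispheres did not overlap here either, although Cort-/- MCAO replicate 4 lay only just above the highest CL library.

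Cd74, the invariant chain, was at 2.12, 2.17 and 2.35 RPKM in Cort+/+ CL and at 3.83, 6.87 and 4.38 RPKM in Cort+/+ MCAO. In Cort-/- hemispheres it was at 1.89, 1.44 and 1.79 RPKM in CL and at 9.49, 4.13, 5.08, 4.09 and 5.60 RPKM in MCAO. No MCAO library overlapped any CL library. Cd74 was also the one member whose 3 Cort-/- CL libraries all lay below the 3 Cort+/+ CL libraries, at 0.771 of their mean, an order that held for 2.35% of all genes. Without Cort-/- MCAO replicate 1, the mean of that group went from 5.68 ± 2.23 RPKM (n = 5) to 4.73 ± 0.741 RPKM (n = 4).

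H2-DMa and H2-DMb1, the chains of the peptide exchange factor, behaved unlike each other. H2-DMa was at 3.93, 3.60 and 4.08 RPKM in Cort+/+ CL and at 4.58, 4.62 and 4.19 RPKM in Cort+/+ MCAO. It was at 3.63, 4.26 and 4.12 RPKM in Cort-/- CL and at 4.54, 3.82, 3.99, 4.20 and 4.26 RPKM in Cort-/- MCAO, so that hemispheres overlapped in Cort-/- mice and only 4 of 8 MCAO libraries exceeded every CL library. H2-DMb1 was at 0.785, 0.865 and 0.897 RPKM in Cort+/+ CL and at 1.49, 2.15 and 1.10 RPKM in Cort+/+ MCAO. It was at 0.702, 1.01 and 0.968 RPKM in Cort-/- CL and at 1.95, 1.64, 0.889, 1.96 and 2.16 RPKM in Cort-/- MCAO. Cort-/- MCAO replicate 3 was the only MCAO library within the CL range. The ratio of H2-DMa to H2-DMb1 was 4.57 ± 0.42 in Cort+/+ CL and 3.01 ± 0.823 in Cort+/+ MCAO (n = 3 each). It was 4.55 ± 0.534 (n = 3) in Cort-/- CL and 2.65 ± 1.03 (n = 5) in Cort-/- MCAO. H2-DMb1 has the close paralog H2-DMb2 next to it, so the division of reads between these copies is uncertain.

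Ifi30, the thiol reductase, had the widest range of the 8 genes on the RPKM scale. It was at 4.50, 2.39 and 2.63 RPKM in Cort+/+ CL and at 8.85, 14.05 and 4.71 RPKM in Cort+/+ MCAO. In Cort-/- hemispheres it was at 2.66, 3.93 and 2.24 RPKM in CL and at 18.8, 8.88, 7.22, 18.0 and 12.5 RPKM in MCAO. Hemispheres did not overlap in either genotype, but Cort+/+ MCAO replicate 4 was close to the highest Cort+/+ CL library.

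**Figure D1:**
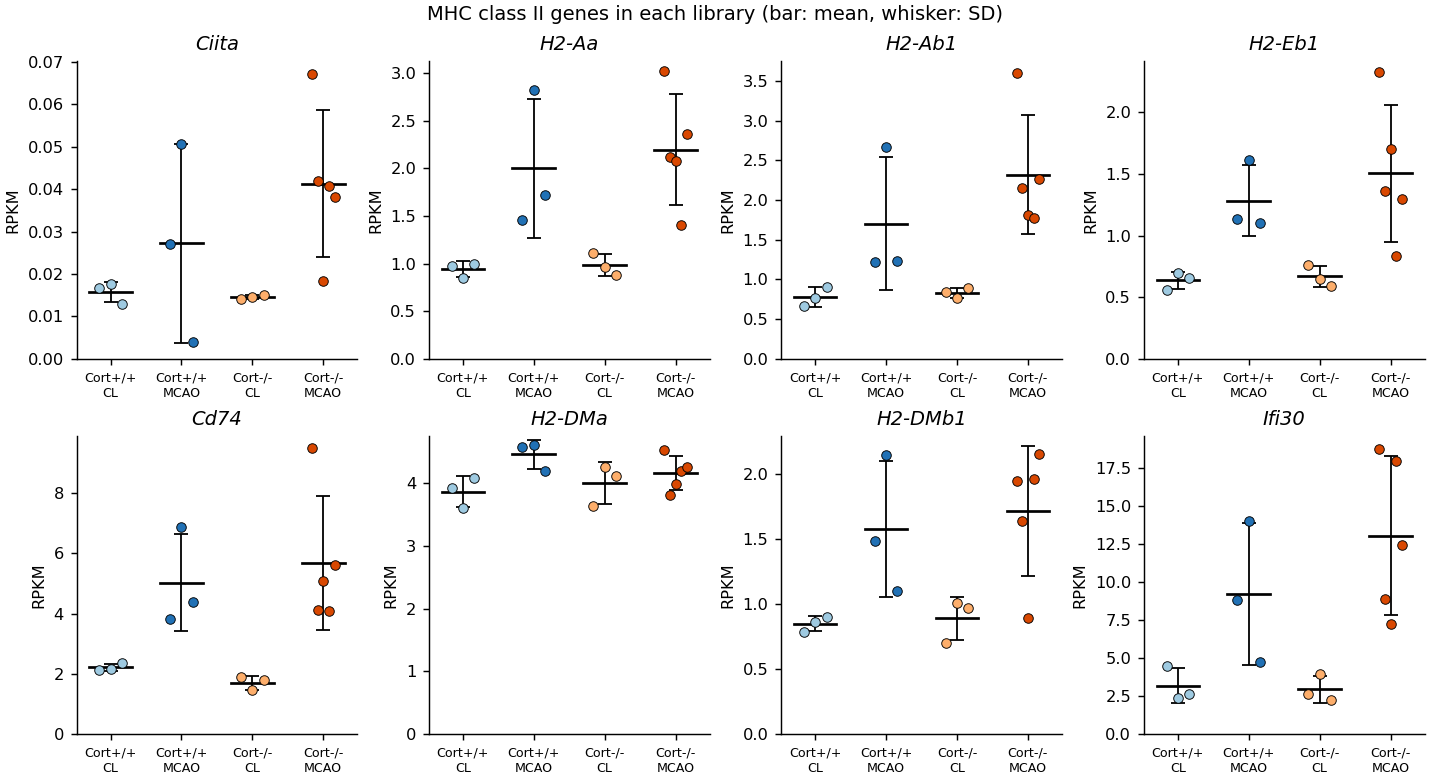
RPKM of the 8 genes in each library (points) by genotype and hemisphere, on linear axes that start at 0, with the mean (horizontal bar) and SD (whisker) of each group. For Cd74, H2-Aa, H2-Ab1, H2-Eb1 and Ifi30 all 8 MCAO points lie above all 6 CL points, H2-DMa is nearly level, and Ciita stays below 0.07 RPKM.

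Since RPKM is a level per gene length, the members can also be set beside each other. In Cort+/+ CL the order of mean RPKM was H2-DMa (3.87 ± 0.245), Ifi30 (3.17 ± 1.16), Cd74 (2.21 ± 0.12), H2-Aa (0.940 ± 0.0824), H2-DMb1 (0.849 ± 0.0576), H2-Ab1 (0.777 ± 0.124), H2-Eb1 (0.638 ± 0.0682) and Ciita (SD, n = 3). In Cort-/- MCAO it was Ifi30 (13.1 ± 5.22), Cd74 (5.68 ± 2.23), H2-DMa (4.16 ± 0.274), H2-Ab1 (2.32 ± 0.747), H2-Aa (2.20 ± 0.58), H2-DMb1 (1.72 ± 0.499), H2-Eb1 (1.50 ± 0.554) and Ciita (SD, n = 5). In Cort+/+ CL the libraries overlapped between H2-DMa and Ifi30 and between each pair of neighbours from H2-Aa to H2-Eb1, but not between Ifi30 and Cd74, Cd74 and H2-Aa, or H2-Eb1 and Ciita. In Cort-/- MCAO all neighbours overlapped except H2-DMa with H2-Ab1 and H2-Eb1 with Ciita.

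The first comparison asked how the ischemic hemisphere differed from the healthy one within each genotype. In Cort-/- mice 4 of the 8 members rose with MCAO: the invariant chain Cd74, the I-A chains H2-Aa and H2-Ab1, and the reductase Ifi30. The log2 fold change, taken on log2(RPKM + 0.1), was 1.61 for Cd74 (SE 0.245, adjusted p = 0.0099), 1.05 for H2-Aa (SE 0.223, adjusted p = 0.0343), 1.33 for H2-Ab1 (SE 0.257, adjusted p = 0.0237) and 2.05 for Ifi30 (SE 0.380, adjusted p = 0.0213), by limma with Benjamini-Hochberg adjustment over all genes. In linear terms the mean RPKM was 3.33, 2.24, 2.79 and 4.44 times that of CL. Of all genes tested, 1.72% were called in this comparison and 1.34% were called higher. For 6 members all 5 MCAO libraries were above all 3 CL libraries, an order seen in 4.85% of all genes, and 7 of 8 had an unadjusted p under 0.05, against 12.7% of all genes. H2-Eb1 (log2 fold change 1.00, adjusted p = 0.0614), H2-DMb1 (0.83, adjusted p = 0.141), Ciita (0.29, adjusted p = 0.346) and H2-DMa (0.06, adjusted p = 0.840) did not pass. The median log2 difference was 1.03 over the members and 0 over all genes.

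In Cort+/+ mice 0 of the 8 members passed with limma, where 0.0108% of all genes were called, and 0 passed under each of the alternatives run. None of these alternatives was the count model (edgeR) that the study used. The study lists Cd74 and Ifi30 among the genes it called between hemispheres in both genotypes. By comparing log2 fold changes, it places both with the genes that rose more in Cort-/- mice. With limma, the differences of the members were nonetheless positive in 8 of 8, and 7 of 8 had an unadjusted p under 0.05, against 7.87% of all genes. The log2 fold change was 1.11 for Cd74 (SE 0.275, adjusted p = 0.247), 0.96 for H2-Aa (SE 0.249), 0.96 for H2-Ab1 (SE 0.287), 0.89 for H2-Eb1 (SE 0.272) and 1.43 for Ifi30 (SE 0.425). H2-DMb1 was at 0.78 (SE 0.287), H2-DMa at 0.20 (SE 0.0823) and Ciita at 0.12 (SE 0.142). In each of Cd74, H2-Aa, H2-Ab1, H2-Eb1, H2-DMa, H2-DMb1 and Ifi30 all 3 Cort+/+ MCAO libraries were above all 3 Cort+/+ CL libraries, an order seen in 5.73% of all genes. The median log2 difference was 0.92 over the members and 0 over all genes.

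With both genotypes averaged, 6 of the 8 members rose with MCAO, where 3.43% of all genes were called and 2.52% were called higher. They were Cd74 (log2 fold change 1.36, adjusted p = 0.00225), H2-Aa (1.01, adjusted p = 0.00615), H2-Ab1 (1.14, adjusted p = 0.00651), H2-Eb1 (0.95, adjusted p = 0.0127), H2-DMb1 (0.80, adjusted p = 0.0381) and Ifi30 (1.74, adjusted p = 0.00586). H2-DMa (0.13, adjusted p = 0.289) and Ciita (0.21, adjusted p = 0.337) did not pass. For 5 members every MCAO library of either genotype exceeded every CL library, an order found in 1.72% of all genes.

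**Figure D2:**
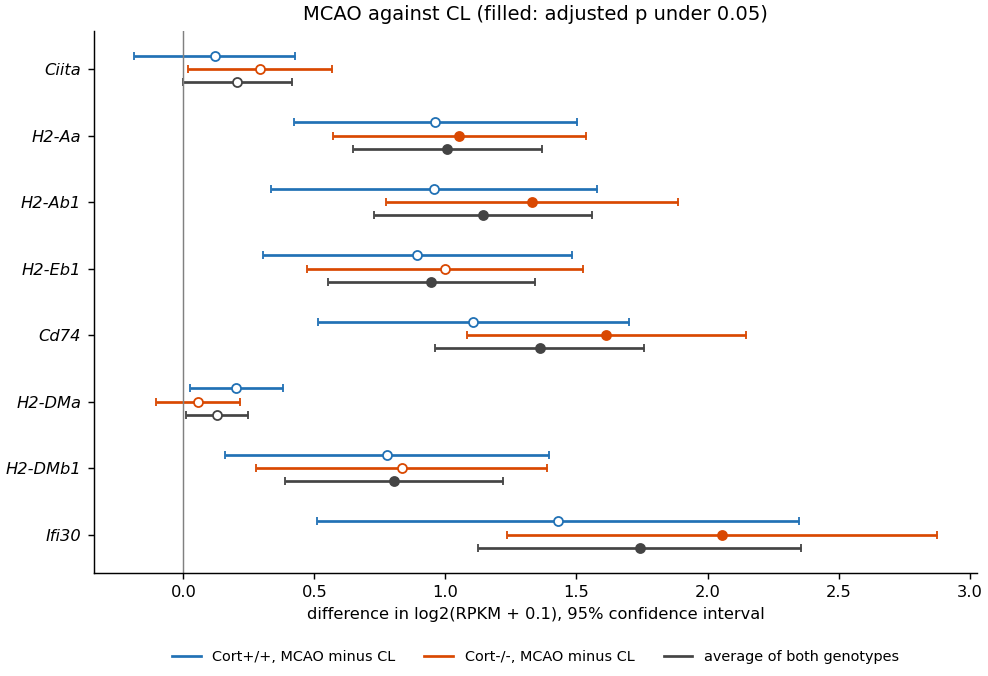
Difference between MCAO and CL in log2(RPKM + 0.1) for each of the 8 genes, with its 95% confidence interval, in Cort+/+ (blue), in Cort-/- (orange) and averaged over both (grey), with filled points for an adjusted p under 0.05. No Cort+/+ point, 4 Cort-/- points and 6 averaged points are filled, and the intervals of both genotypes overlap for every gene.

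Several of the calls in Cort-/- mice depended on single libraries. Cd74 passed with each of the 14 libraries left out in turn. H2-Aa did not pass without Cort-/- CL replicate 1, 2 or 3, Cort-/- MCAO replicate 1, 2 or 5, or Cort+/+ CL replicate 3, H2-Ab1 did not pass without Cort-/- CL replicate 1, 2 or 3 or Cort-/- MCAO replicate 5, and Ifi30 did not pass without Cort-/- CL replicate 1 or 3 or Cort-/- MCAO replicate 1 or 4. H2-Eb1 passed without Cort-/- MCAO replicate 4, and H2-DMb1 passed without Cort-/- MCAO replicate 3. The number called was 1 without Cort-/- CL replicate 1 or 3, and 2 without Cort-/- CL replicate 2, Cort-/- MCAO replicate 1 or Cort-/- MCAO replicate 5. It was 0 when only the Cort-/- libraries entered the fit, where the whole table gave 86 calls in place of 792. In the averaged comparison Cd74, H2-Aa, H2-Ab1, H2-Eb1 and Ifi30 passed without any 1 library, whereas H2-DMb1 passed only without Cort-/- MCAO replicate 3 or Cort+/+ MCAO replicate 4.

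The second comparison asked whether lack of cortistatin went with another level of these genes within a hemisphere. In CL, 0 of the 8 members differed between genotypes by limma, and 0.0152% of all genes were called. Likewise 0 of 8 had an unadjusted p under 0.05, against 3.91% of all genes. The largest difference was that of Cd74, with a log2 fold change of -0.36 (95% interval -0.96 to 0.23, unadjusted p = 0.209, adjusted p = 1). The intervals reached from -0.49 to 0.59 for H2-Aa, from -0.52 to 0.72 for H2-Ab1 and from -1.01 to 0.83 for Ifi30.

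In MCAO, 0 of the 8 members differed between genotypes by limma, with 0.0174% of all genes called, and 0 had an unadjusted p under 0.05, against 3.82% of all genes. H2-Ab1 was at 0.47 (95% interval -0.09 to 1.03, adjusted p = 1) and Ifi30 at 0.54 (interval -0.28 to 1.36). Cd74 was at 0.15 (interval -0.38 to 0.68), and differences inside these intervals are not excluded by these 3 and 5 libraries. In H2-DMa the interval was narrow, from -0.26 to 0.06.

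The difference between genotypes in the MCAO effect was tested as an interaction, which called 0 of the 8 members and 0.00217% of all genes by limma. An unadjusted p under 0.05 was found for 0 of 8, against 3.31% of all genes. It was 0.51 for Cd74 (95% interval -0.29 to 1.31, adjusted p = 1.00), 0.63 for Ifi30 (interval -0.61 to 1.86) and 0.37 for H2-Ab1 (interval -0.46 to 1.21). H2-Aa was at 0.09, H2-Eb1 at 0.11 and H2-DMb1 at 0.06, all with intervals that include 0. That 4 members passed in Cort-/- and 0 in Cort+/+ mice is therefore not a difference between genotypes shown by these libraries.

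**Figure D3:**
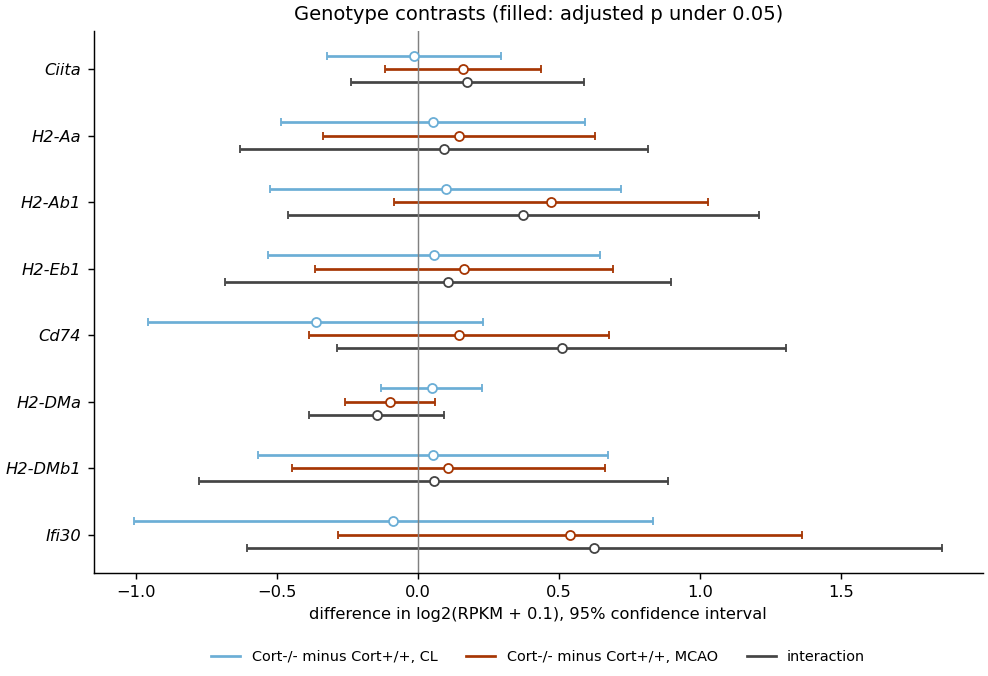
Difference between Cort-/- and Cort+/+ in log2(RPKM + 0.1) in CL (light blue) and in MCAO (brown), and the interaction, which is the difference between genotypes in MCAO minus CL (grey), each with its 95% confidence interval. Every interval includes 0 and no point is filled.

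Within the 8 MCAO libraries the correlations between members covered a wide range. Of the 28 pairs of members, 9 had a Pearson correlation with an exact permutation p below 0.05 after Benjamini-Hochberg adjustment, while 0 of the 28 Spearman correlations passed, with adjusted values from 0.0507. Cd74 and H2-Aa had r = 0.888 (permutation p = 0.00127, adjusted 0.0299) and rho = 0.905 (permutation p = 0.00456, adjusted 0.0507). Without the 2 libraries farthest from the median of Cd74, r was 0.784, and within the 5 Cort-/- MCAO libraries it was 0.839. H2-Aa and H2-Eb1 had r = 0.873 (permutation p = 0.00412, adjusted 0.0307) and rho = 0.810 (permutation p = 0.0218, adjusted 0.122), with r = 0.791 without the 2 farthest libraries. H2-Aa and H2-Ab1, the I-A chains, had r = 0.871 (permutation p = 0.0059, adjusted 0.0331) and rho = 0.929 (permutation p = 0.00223, adjusted 0.0507), with r = 0.967 without the 2 farthest libraries. Of the 9 pairs, Cd74 with H2-Ab1, Cd74 with H2-Eb1 and H2-DMb1 with Ciita went down to r between 0.517 and 0.556 without their 2 farthest libraries, so these relations rest on those libraries. These are levels from the same libraries, the 3 Cort+/+ libraries are too few for a value of their own, and H2-Aa and H2-Eb1 may share reads in their overlap.

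The remaining pairs joined Ciita with H2-Ab1, H2-DMb1 and Ifi30, and H2-DMb1 with Ifi30. H2-Ab1 and Ciita had r = 0.865 (permutation p = 0.00712, adjusted 0.0332) and rho = 0.786 (permutation p = 0.0279, adjusted 0.130), with r = 0.896 without the 2 farthest libraries and 0.843 in the 5 Cort-/- libraries. H2-Ab1 and Ifi30 had r = 0.721 (permutation p = 0.043, adjusted 0.110) and rho = 0.667 (permutation p = 0.0831, adjusted 0.233), with r = 0.680 without the 2 farthest libraries. Ciita and Ifi30 had r = 0.905 (permutation p = 0.00213, adjusted 0.0299) and rho = 0.881 (permutation p = 0.00724, adjusted 0.0507), with r = 0.725 without the 2 farthest libraries and 0.782 in the 5 Cort-/- libraries. H2-DMb1 and Ifi30 had r = 0.820 (permutation p = 0.0113, adjusted 0.0396) and rho = 0.738 (permutation p = 0.0458, adjusted 0.143), with r = 0.701 without the 2 farthest libraries. H2-Eb1 and H2-DMb1 had r = 0.009 (permutation p = 0.983, adjusted 0.983) and rho = -0.05 (permutation p = 0.935, adjusted 0.935), and H2-Eb1 and Ifi30 had r = 0.203 (permutation p = 0.636, adjusted 0.659) and rho = 0.238 (permutation p = 0.582, adjusted 0.627). Ciita rests on 1 to 24 reads in these libraries.

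**Figure D4:**
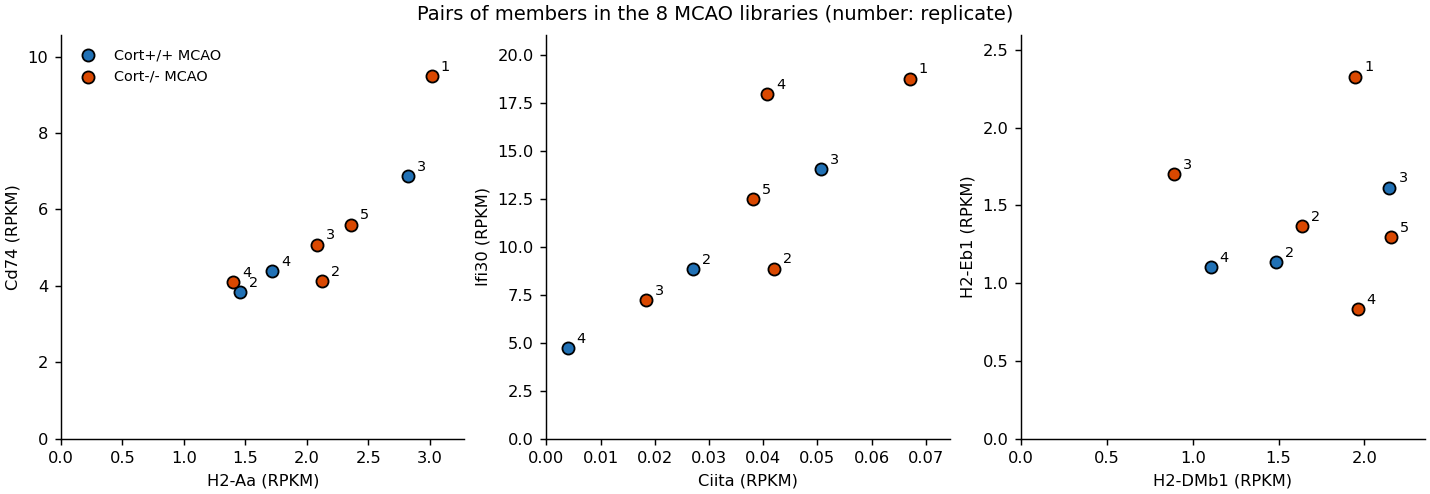
RPKM of pairs of members in the 8 MCAO libraries, Cort+/+ in blue and Cort-/- in orange, each point labelled with its replicate number. Cd74 rises with H2-Aa and Ifi30 with Ciita across the libraries, whereas H2-Eb1 shows no order along H2-DMb1, with Cort-/- replicates 3 and 4 at opposite corners.

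Cort-/- MCAO replicate 1 was the highest of the 8 MCAO libraries for 6 of the 8 members, and Cort+/+ MCAO replicate 3 was among the top 2 for 6. Cort-/- MCAO replicate 4 was high in Ifi30 but lowest in H2-Aa and H2-Eb1, so that its ratio of Ifi30 to H2-Aa was 12.8, against a mean of 6.40 ± 3.75 in its group (n = 5). H2-Ab1, the partner of H2-Aa in I-A, was 0.829 ± 0.133 of H2-Aa in Cort+/+ CL, 0.832 ± 0.116 in Cort+/+ MCAO and 0.859 ± 0.139 in Cort-/- CL (n = 3 each), and 1.061 ± 0.166 in Cort-/- MCAO (n = 5), with overlapping hemispheres in both genotypes. H2-Eb1 was 0.685 ± 0.124 of H2-Aa in Cort+/+ CL, 0.664 ± 0.105 in Cort+/+ MCAO and 0.681 ± 0.00906 in Cort-/- CL (n = 3 each), and 0.675 ± 0.115 in Cort-/- MCAO (n = 5). Cd74 was 2.36 ± 0.194 of H2-Aa in Cort+/+ CL, 2.54 ± 0.10 in Cort+/+ MCAO, 1.75 ± 0.271 in Cort-/- CL and 2.57 ± 0.475 in Cort-/- MCAO, with the Cort-/- CL libraries all below the other CL libraries.

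Of 33 other genes of the class II pathway, listed by role, 32 were tested and H2-Ea was not analysed here. In Cort-/- mice 9 of 32 rose and 0 fell with MCAO, with both genotypes averaged 10 rose and 0 fell, and in Cort+/+ mice 0 passed. In the genotype contrasts and the interaction 0 of 32 passed. The median log2 difference over the 32 genes was 0.11 in Cort-/- and 0.12 in Cort+/+ mice, against 0 over all genes.

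The factors that assemble on class II promoters did not pass in any contrast. These are Rfx5, Rfxap, Rfxank, Nfya, Nfyb, Nfyc and Creb1, with Nfya, a subunit of NF-Y, showing the largest averaged log2 difference at 0.19 (adjusted p = 0.441). Of the 7 genes of interferon-gamma signalling to Ciita that were described, Irf8 (log2 fold change 1.19, adjusted p = 0.0246), a myeloid interferon regulatory factor, rose in Cort-/- mice. Irf1, which acts on a Ciita promoter, passed only in the average (0.62, adjusted p = 0.0404). Ifng itself had 0 or 1 read in every library, so no difference in it could be measured at this depth.

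Endosomal proteases showed the most calls. In Cort-/- mice 6 of 7 rose, among them cathepsin S (Ctss, log2 fold change 0.88, adjusted p = 0.0296), which makes the last cuts in the invariant chain, cathepsin L (Ctsl, 0.82, adjusted p = 0.0328) and legumain (Lgmn, 0.94, adjusted p = 0.0173). Cathepsins H (Ctsh, 1.20), D (Ctsd, 1.14) and B (Ctsb, 0.51) passed as well, while Sppl2a, the intramembrane protease that clears the Cd74 stub, was at 0.07 (adjusted p = 0.817). The same 6 proteases passed in the average.

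The other class II region genes H2-Oa, H2-Ob, H2-DMb2 and H2-Eb2 gave 0 calls. H2-Oa and H2-Ob, the chains of the H2-DM inhibitor, had averaged log2 differences of 0.41 (adjusted p = 0.281) and 0.40 (adjusted p = 0.159). Of the ubiquitin ligases that remove class II from the surface, Marchf1 was at -0.14 in the average (adjusted p = 0.138). The costimulatory receptor Cd40 rose in Cort-/- mice (0.96, adjusted p = 0.0293) and was at 0.07 in Cort+/+ mice, with an interaction of 0.90 that did not pass (unadjusted p = 0.00934, adjusted p = 1.00). Cd86, a ligand of CD28, passed in the average only (0.90, adjusted p = 0.0423). Cd44, which signals with Cd74, rose in Cort-/- mice (1.84, adjusted p = 0.0103), whereas the Cd74 ligand Mif was at 0.10 (adjusted p = 0.545).

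MHC class I presentation, which shows cytosolic peptides to CD8+ T cells, was set beside class II. Of 9 class I genes, 5 rose in Cort-/- mice and all 9 in the average, and 0 passed in Cort+/+ mice. The differences in Cort+/+ mice were nonetheless positive in all 9, with a median log2 difference of 0.87. The interaction called 0 of the 9, so a difference between genotypes was not shown for these genes. Nlrc5, the class I counterpart of Ciita, had a log2 fold change of 2.06 (SE 0.440, adjusted p = 0.0359) in Cort-/- mice and a mean of 0.853 ± 0.387 RPKM (n = 5) in their MCAO hemisphere. The immunoproteasome subunits Psmb8 (1.82, adjusted p = 0.0415) and Psmb9 (1.50, adjusted p = 0.0359), the light chain B2m (0.98, adjusted p = 0.0295) and the heavy chain H2-K1 (1.12, adjusted p = 0.0343) passed too. The median log2 difference in Cort-/- mice was 1.12 over the class I list and 1.03 over the class II members, and this difference was not tested. H2-K1 and H2-D1 are similar class I genes, so some of their reads may be exchanged.

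**Figure D5:**
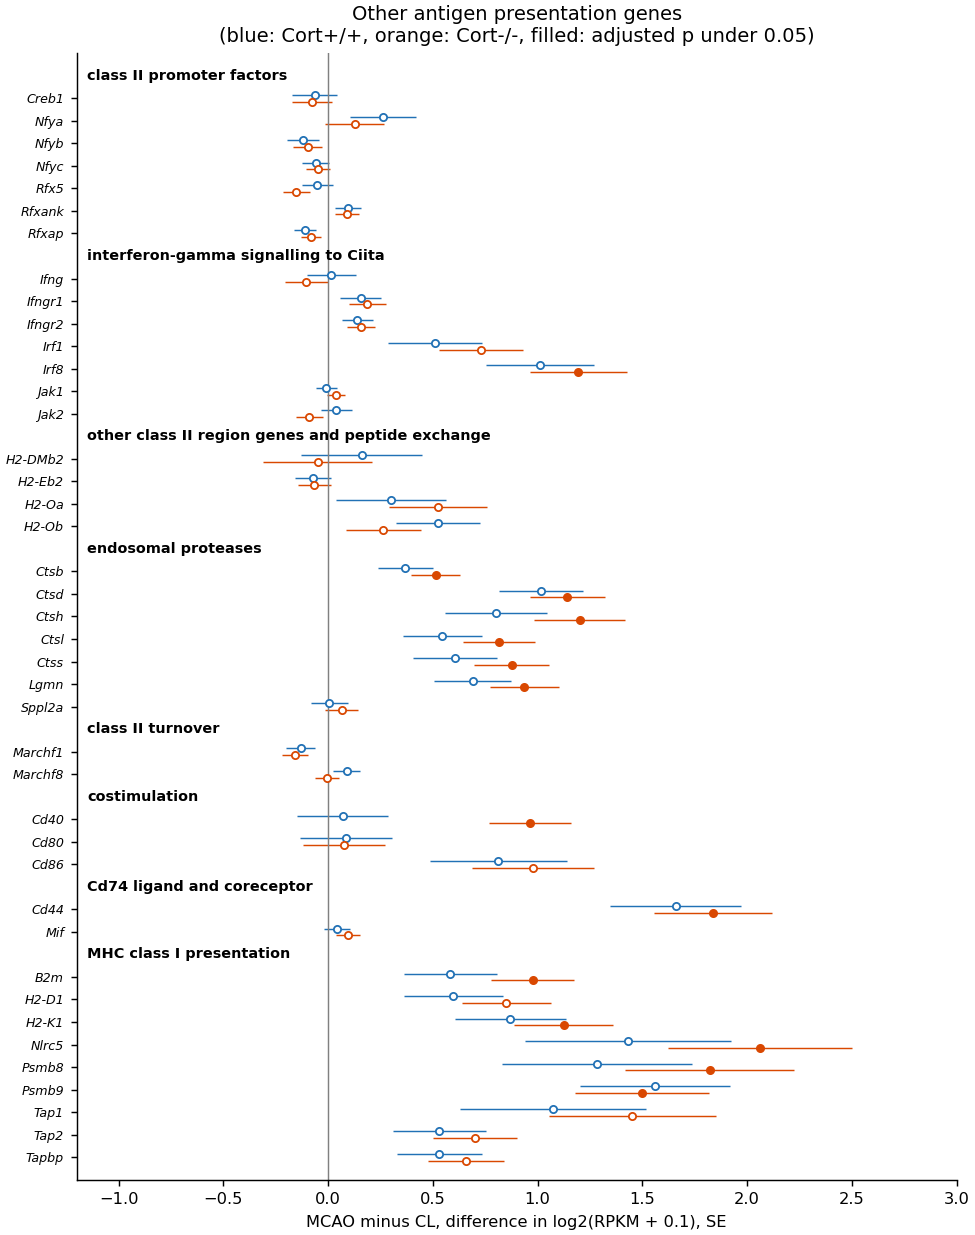
MCAO minus CL in log2(RPKM + 0.1), with its SE, for 32 other class II pathway genes and 9 class I genes grouped by role, in Cort+/+ (blue) and Cort-/- (orange), filled for an adjusted p under 0.05. Filled points are orange only and gather in the endosomal proteases (6 of 7) and class I presentation (5 of 9), and the promoter factors lie around 0.

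Some marker lists moved with the members, both of cells that can carry class II and of others. The 5 general markers of macrophages and microglia (Aif1, Cd68, Itgam, Csf1r and Ptprc) rose in 5 of 5 in Cort-/- mice and in the average, and passed in 0 of 5 in Cort+/+ mice. Their summed level was 31.7 to 39.4 RPKM in Cort+/+ CL and 50.8 to 88.1 RPKM in Cort+/+ MCAO, and 35.0 to 40.3 RPKM in Cort-/- CL and 60.6 to 105.8 RPKM in Cort-/- MCAO. The 6 homeostatic microglia markers summed to 76.2 to 90.8 RPKM over both CL groups and 102.7 to 172.0 RPKM over both MCAO groups, with 2 of 6 called in Cort-/- mice, 0 in Cort+/+ mice and 4 in the average. Of 4 astrocyte markers, Gfap (log2 fold change 1.96, adjusted p = 0.0424) and Aqp4 (0.68, adjusted p = 0.0232) rose in Cort-/- mice, 3 passed in the average and 0 in Cort+/+ mice. The sum of the 4 astrocyte markers was 316.8 to 410.2 RPKM over both CL groups and 385.6 to 605.3 RPKM over both MCAO groups. Mean Gfap was 72.75 RPKM in Cort-/- CL and 279.9 RPKM in Cort-/- MCAO. Slc1a2 went the other way, with means of 250.1 RPKM in Cort-/- CL and 213.7 RPKM in Cort-/- MCAO. In Cort+/+ mice its means were 248.2 RPKM in CL and 229.8 RPKM in MCAO. The endothelial markers Cldn5, Pecam1 and Flt1 summed to 26.4 to 29.0 RPKM in Cort+/+ CL and 29.7 to 31.0 RPKM in Cort+/+ MCAO. In Cort-/- mice the sums were 19.6 to 23.9 RPKM in CL and 27.5 to 40.5 RPKM in MCAO, with 1 of 3 genes called in the average. Markers of neutrophils, oligodendrocytes and choroid plexus gave 0 calls. The part of any of these cells in the class II levels was not tested.

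Set against the summed general markers, the members did not move alike. Per 100 RPKM of markers, H2-Aa was at 2.74 ± 0.359 RPKM in Cort+/+ CL, 2.80 ± 0.853 in Cort+/+ MCAO and 2.66 ± 0.384 in Cort-/- CL (n = 3 each), and at 2.63 ± 0.752 in Cort-/- MCAO (n = 5). H2-Eb1, at 1.81 to 1.88 RPKM in all 4 groups, was as level. Cd74 was at 6.47 ± 1.02 RPKM in Cort+/+ CL, 7.07 ± 2.01 in Cort+/+ MCAO, 4.66 ± 0.935 in Cort-/- CL and 6.64 ± 2.03 in Cort-/- MCAO, with overlapping hemispheres in both genotypes. Ifi30 was higher in MCAO, at 7.87 ± 1.71 in Cort-/- CL and 14.7 ± 3.0 in Cort-/- MCAO, with no overlap of libraries, and at 9.01 ± 2.14 and 12.1 ± 3.45 in Cort+/+ mice, where the libraries overlapped. H2-DMa was lower, at 10.8 ± 0.835 in Cort-/- CL and 4.98 ± 0.967 in Cort-/- MCAO, and at 11.3 ± 1.48 and 6.41 ± 1.61 in Cort+/+ mice, with no overlap in either genotype. The homeostatic microglia markers as the denominator gave other values. Per 100 RPKM of those, Cd74 was at 2.07 ± 0.414 RPKM in Cort-/- CL and 3.81 ± 1.16 in Cort-/- MCAO, without overlap, and at 2.70 ± 0.219 and 3.70 ± 1.01 in Cort+/+ mice, with overlap. H2-Aa was at 1.18 ± 0.138 in Cort-/- CL and 1.50 ± 0.367 in Cort-/- MCAO, and at 1.15 ± 0.12 and 1.47 ± 0.438 in Cort+/+ mice, with overlap in both. Ifi30 again separated the hemispheres in Cort-/- but not in Cort+/+ mice, and H2-DMa was again lower in MCAO without overlap in both. These ratios are a description and carry no test.

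Markers of the other cells that can carry class II gave few calls. The 5 B cell markers gave 0 calls and summed to at most 1.01 RPKM in any library, and Ms4a1 was at 0 in 5 of 14 libraries. The 8 dendritic cell markers summed to 642 to 1009 reads, or 5.09 to 6.43 RPKM, with overlapping hemispheres. Most of this came from Flt3, at 281 to 430 reads, and Zbtb46, at 291 to 472 reads, which did not pass in any contrast. Itgax, shared with microglia, rose in Cort-/- mice (log2 fold change 1.79, adjusted p = 0.00887). Its mean in Cort+/+ mice was 0.0469 RPKM in CL and 0.381 RPKM in MCAO, without a call. Batf3 had 11 to 68 reads, Xcr1 was at 0 in 10 of 14 libraries with at most 1 read and Clec9a had at most 3 reads. The 5 border-associated macrophage markers gave 0 calls, with sums of 1.48 to 2.92 RPKM in the CL groups and 1.98 to 5.95 RPKM in the MCAO groups. The 4 monocyte markers summed to 0.39 to 1.78 RPKM in CL and 0.748 to 7.20 RPKM in MCAO, with Plac8 called in the average. T cell markers Cd3e, Cd3d and Cd3g had at most 5 reads per library, Cd8a at most 4 and Trac 12 to 32. Cd4 had 71 to 523 reads and fell in Cort-/- mice (-1.53, adjusted p = 0.0332), as the only 1 of the 6 T cell markers called there. The differences of 4 of the 6 were positive in those mice. In Cort+/+ mice Cd4 was also lower in MCAO, at 3.67 to 4.51 RPKM in CL and 1.21 to 2.82 RPKM in MCAO, but was not called. Which cells carried Cd4 was not tested.

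The genes whose profile over the 14 libraries was most like that of a member were found by the root mean square difference of centred log2(RPKM + 0.1) among the 15056 genes averaging 1 RPKM or more. For Cd74, whose own profile had a root mean square of 0.763, they were Mir5107 (0.188), H2-T24 (0.256), Sp100 (0.295), Slfn5 (0.299) and Fcer1g (0.301). Mir5107 lies with all 88 bases in exons of Cd74 on the same strand and may hold the same reads. For H2-Ab1 they were Ptprc (0.215), H2-T24 (0.239) and Irgm2 (0.251), of which H2-T24 is a non-classical class I gene and Irgm2 an interferon-inducible GTPase. Among the members apart from Ciita the smallest differences were 0.172 for H2-Aa and H2-Eb1 and 0.230 for H2-Aa and H2-Ab1. Ciita is left out here because all its values lie below the added 0.1 RPKM, which compresses its profile on this scale.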

How the data were processed

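Hemispheres of Cort-/- and Cort+/+ mice were sequenced as stranded polyA RNA. The authors aligned and counted reads with the reanalyzerGSE pipeline on GRCm39 with GENCODE M28 and deposited RPKM for each gene and library, without pooling replicates. Default parameters were used, per the study's methods, apart from the filter on low genes, and the strand setting of the counting is not spelled out. The table held 0 columns that were not used.

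Groups came from the labels. The main test was limma 3.58.1 (R 4.3.3) on log2(RPKM + 0.1) with the 4 groups in 1 model, a trended prior and Benjamini-Hochberg adjustment over 46102 genes above 0 in at least 2 libraries, with a threshold of 0.05. Correlations used exact permutations (two-sided). Whole reads were recovered from the RPKM steps (100.0% of values within 0.01 of a read), with 25991112 to 43034545 reads per library, and entered voom as an alternative. On simulated data larger changes were recovered, and false calls were more frequent than the nominal rate. Gene positions are from GENCODE M39.

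All 8 members are named. Genes of a list are named if they passed in any contrast or had the largest averaged MCAO difference of their list, and genes like a member by their distance. No neighbours are named for Ciita, whose profile is compressed by the pseudocount. H2-Ob, Ifng, Mif, Sppl2a and single markers that did not pass were named after their values were seen. A gene of the interferon-gamma list is not reported here and is left out of its counts. The members and lists were chosen with earlier results of these data known. Alternatives were other pseudocounts, filters, scalings, library weights, voom, 2-group fits, replicate blocks and leaving out each library.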

Additional observations from a re-analysis of the deposited data

Results flagged for a closer look

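Within the 5 Cort-/- MCAO libraries, the highest value stood apart from the other 4 for 2 of the 8 members tested, Cd74 and H2-Ab1. The gap to the next library was 0.7208 of the whole range for Cd74 and 0.7359 for H2-Ab1, where Dixon's 95% critical value for 5 samples is 0.71. Both were Cort-/- MCAO replicate 1, at 9.49 RPKM for Cd74 and 3.60 RPKM for H2-Ab1. Chance flags about 1 in 20 groups, and the 8 genes share their libraries. Without that library both genes were still higher in Cort-/- MCAO than in CL (adjusted p under 0.05 by limma), with means of 4.73 ± 0.741 and 2.00 ± 0.241 RPKM (SD, n = 4).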

How the results depend on the processing

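Over all alternatives run, 0 members passed in Cort+/+ mice, in either genotype contrast or in the interaction. In Cort-/- mice the number called was 0 with only the groups compared in the fit, and 1 to 5 with each library left out. Whether same-numbered CL and MCAO samples share a mouse cannot be told from the few correlations of their deviations from group means. Same-numbered samples correlated at 0.316 and -0.141 in Cort+/+ and at -0.064, -0.239 and 0.027 in Cort-/- mice. Differently numbered CL and MCAO samples reached 0.27 in Cort+/+ and 0.404 in Cort-/- mice. Cort+/+ CL replicate 2 correlated best with its own number. Cort+/+ CL replicate 1, which has no MCAO sample of its number, did so with MCAO replicate 3, and CL replicate 3 with MCAO replicate 4 (0.268). Of the Cort-/- CL samples, 0 of 3 correlated best with their own number. With that number as a replicate block, 0 members passed in Cort-/- mice and 4 in the average, and with a replicate block within genotype 0 passed in both. Under the block the log2 difference of H2-Aa turned to -0.0011 for Cort-/- against Cort+/+ in MCAO and to -0.0533 in the interaction, and that of H2-DMb1 to -0.0322 in the interaction. Within genotype the interaction turned to -0.3126 for H2-DMb1 and -0.2526 for Ifi30. In the average, H2-DMb1 did not pass with a pseudocount of 1 (adjusted p = 0.0514) or quantile normalization (adjusted p = 0.0508).

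Some differences near 0 changed sign when 1 library was left out. Ciita ranged from -0.0108 to 0.2569 in Cort+/+ mice, and H2-DMa from -0.0119 to 0.1005 in Cort-/- mice. Between genotypes in CL the ranges were -0.0296 to 0.1227 for H2-Aa, -0.0012 to 0.202 for H2-Ab1, -0.031 to 0.1296 for H2-Eb1, -0.0021 to 0.1147 for H2-DMa, -0.0343 to 0.1976 for H2-DMb1 and -0.3089 to 0.1859 for Ifi30. In MCAO they were -0.055 to 0.3898 for Cd74, -0.0452 to 0.4104 for H2-Aa, -0.0037 to 0.3413 for H2-Eb1 and -0.1093 to 0.3402 for H2-DMb1. In the interaction they were -0.0974 to 0.3582 for H2-Aa, -0.0609 to 0.2842 for H2-Eb1 and -0.1609 to 0.2887 for H2-DMb1.

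Counts over all genes moved more. With each library left out, the 5 calls of Cort+/+ mice ranged from 3 to 160 and the 792 of Cort-/- mice from 133 to 1191, and the 1579 of the average ranged from 941 to 1913. Under the other alternatives they were 0 to 57, 0 to 1366 and 0 to 2315. The genotype contrasts gave 7 (4 to 90 over all alternatives) in CL and 8 (4 to 40) in MCAO, and the interaction gave 1 (0 to 16). Voom on recovered reads, and voom above a mean of 0.5 RPKM (added after the data were seen), both called 4 members in Cort-/- mice and 6 in the average. The cause of these shifts was not tested. Few libraries and the low level of Ciita limit the precision.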
